A study of Mus musculus with 4 samples.

Results

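Aminoacyl-tRNA synthetases are the enzymes that join each amino acid to its tRNA, and they were compared here between J774 cells kept with a proteasome inhibitor and J774 cells kept with solvent. The set holds 36 genes, 20 for the enzymes of the cytosol and 16 for the enzymes of the mitochondria, out of 20133 genes that could be named on the array. The genes were taken by their names, and those of the mitochondria carry a 2 at the end of their symbol. All 36 had a probe, and 35 were called well above background by the scanner software on every array. The exception was *Nars2*, mitochondrial asparaginyl-tRNA synthetase, which had signals of 5.37 under DMSO, 13.3 under MG132, 12.1 under epoxomicin and 12.7 under ONX0914, none of them well above background. It was not compared.

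J774.1 is a macrophage-like cell line of mouse origin. The cultures received DMSO alone, MG132, epoxomicin or ONX0914, each inhibitor at 1 μM for 4 hours, and the labels name no other treatment. MG132 is a peptide aldehyde that acts on the proteasome reversibly. Epoxomicin and ONX0914 are epoxyketones that bind it covalently, and ONX0914 was made to favour β5i, a subunit of the immunoproteasome. The label of the ONX0914 array gives its treatment as ONX-0912, whereas the treatment protocol and the study's methods name ONX0914. The methods name a human array design, but the headers of the files describe a mouse one, annotated on mm9. Each condition had 1 single-color (Cy3) array, and the 4 arrays lay on 1 slide.

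With 1 array per condition, the number of arrays limits the precision: no difference given below has a replicate check, and no test was made. The signals quoted are those of single spots after background subtraction and before scaling. Differences are on the log2 scale after the 75th percentile of each array (a signal of 1448 to 1669) had been subtracted, so that 1 stands for a 2-fold change. The sole measure of error was the spread of repeated spots of one probe, with a median SD of at most 0.0613 on the log2 scale, and each synthetase probe was printed once per array. All 3 inhibitors were set against the same DMSO array, so an error of that array would enter all 3 differences. Of the 8 macrophage markers, 7 had a named probe with a value on all arrays, and these were well above background on every array. *Cd68* had no such probe. *Cd79a* and *Ms4a1*, which mark B cells, were not, on any array. Of the T cell markers, *Cd3e* and *Cd4* were detected and *Cd3d* and *Cd8a* were not. Of the fibroblast markers, *Col1a2* was detected on 4 arrays, *Pdgfra* on 2 and *Col1a1* on none. The epithelial markers *Epcam* and *Cdh1* were at background, while *Krt8* had signals of 4.16 under DMSO, 37.8 under MG132, 121 under epoxomicin and 5.30 under ONX0914, and *Krt18* was above background with epoxomicin only. The medians of the 7 macrophage markers were -0.14, -0.05 and 0.04 for MG132, epoxomicin and ONX0914. Their differences ran from -0.60 (*Lyz2*) to 0.35 (*Itgam*) with MG132, from -1.01 (*Lyz2*) to 0.22 (*Ptprc*) with epoxomicin and from -0.28 (*Itgam*) to 0.21 (*Ptprc*) with ONX0914, and *Spi1* had -0.52 with MG132 and -0.97 with epoxomicin. The part of these markers in the results was not tested. In RNA from whole cultures, fewer cells of a kind and less RNA per cell cannot be told apart.

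Synthetases of the cytosol charge the tRNAs that are read by cytosolic ribosomes, and a separate set of enzymes, also encoded in the nucleus, charges those of the mitochondrion. *Gars* and *Kars* each give enzymes for both compartments, and *Eprs* makes a single protein that charges tRNAs with glutamate and with proline. Several cytosolic synthetases are held together in the multisynthetase complex, and the enzymes fall into class I and class II by the fold of their catalytic core. When uncharged tRNA accumulates or the eukaryotic initiation factor eIF2α is phosphorylated, the transcription factor ATF4 is translated more, and many cytosolic synthetase genes are known targets of ATF4. With its partners of the C/EBP family, ATF4 binds a short element of the form TGATGNAA.

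This element was therefore looked for, on both strands, in the 250 bases before the start of each gene, in RefSeq promoter sequences of GRCm38.p6 that cover 27 of the 36 synthetases (13 cytosolic, 14 mitochondrial). It was present in 3 cytosolic genes (23.1%), *Aars*, *Gars* and *Tars*, and in none of the 14 mitochondrial ones. Of all 27025 genes with such a sequence, 1056 (3.91%) held it, as did 2.85% of the 10988 that were also compared with MG132. At such shares, none among 14 genes is close to the background. The matches are given with the bases around them, in the direction of transcription and with the element in capitals, together with that of *Asns*, the asparagine synthetase gene, as an example from the integrated stress response genes described later. On the strand shown, the 3 synthetase matches read as the reverse complement of TGATGNAA, and that of *Asns* reads forward.

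Aars, chr8:111033710-111033757 (+): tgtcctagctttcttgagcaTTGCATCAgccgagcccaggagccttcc

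Gars, chr6:55037951-55037998 (+): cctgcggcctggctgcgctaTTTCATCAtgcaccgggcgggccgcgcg

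Tars, chr15:11399659-11399693 (-): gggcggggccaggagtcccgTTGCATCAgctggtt

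Asns, chr6:7693210-7693252 (-): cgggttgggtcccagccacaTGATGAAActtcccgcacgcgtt

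The element began 112 bases before the start in *Aars*, 30 in *Gars* and 15 in *Tars*. The first and the last share the same 8 bases, and that of *Gars* differs from them at the free position of the element. *Cars*, *Hars*, *Lars*, *Nars*, *Rars*, *Vars*, *Wars*, *Hars2* and *Pars2* had no entry. Of the genes at least 2-fold higher with both MG132 and epoxomicin, described below, *Aars* and *Tars* held the element. *Iars*, *Sars* and *Yars* were also 2-fold higher and had an entry without it. *Gars*, which held it, was not 2-fold higher with any inhibitor. Such matches describe letters in a window, and the arrays do not show what binds there.

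Most cytosolic synthetases had higher levels with each inhibitor than with DMSO, and most mitochondrial ones did not. With MG132, 7 of 20 cytosolic genes were at least 2-fold higher, against 7.24% of the 13772 genes compared, and their median difference was 0.82 (1.77-fold), against -0.02 for all genes. With epoxomicin, 8 were at least 2-fold higher, against 8.48% of 13864 genes, with a median of 0.83, against -0.04. With ONX0914, the threshold was passed by 1 cytosolic gene, against 3.27% of 13791 genes, and the median was 0.46, against -0.01. That single gene became 3 with normexp background correction fitted on all spots and 2 with the mean over a gene's probes. Taken singly, 20 of the 20 genes lay above 0 with MG132, 17 with epoxomicin and 19 with ONX0914. Of all genes, 6570 of 13772, 6482 of 13864 and 6772 of 13791 did. With all 3 inhibitors, which share the DMSO array, 17 lay above 0, and no share of all genes is given for that count. The number above the 75th percentile of all genes was 15 for MG132, 15 for epoxomicin and 16 for ONX0914. No cytosolic gene was 2-fold lower with any inhibitor. For comparison, the share of all genes at least 2-fold lower was 3.68% for MG132, 4.4% for epoxomicin and 1.4% for ONX0914.

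None of the 15 mitochondrial genes compared passed the 2-fold threshold in either direction with any inhibitor. For MG132, epoxomicin and ONX0914, 7.24%, 8.48% and 3.27% of all genes were higher and 3.68%, 4.4% and 1.4% were lower. At such shares, none among 15 genes is close to the background. The medians of the mitochondrial genes were -0.14, -0.10 and -0.02 for MG132, epoxomicin and ONX0914, and these stayed below 0 under every scaling and background correction tried. Of the 15 genes, 3 lay above 0 with all 3 inhibitors, 7 below 0 with all 3, and 12 within 0.5 of 0 with all 3. The same band held 6 of the 20 cytosolic genes. Both the 25th and the 75th percentile of all genes lay in that band with each inhibitor. They were -0.34 and 0.32 with MG132, -0.36 and 0.34 with epoxomicin, and -0.19 and 0.2 with ONX0914. Taken singly, 10 of the 15 mitochondrial genes lay below 0 with MG132, 11 with epoxomicin and 9 with ONX0914. Of all genes, 7202 of 13772, 7382 of 13864 and 7019 of 13791 did. For the counts over all 3 inhibitors, which share the DMSO array, no share of all genes is given, so they cannot be told from the background.

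**Figure D1:**
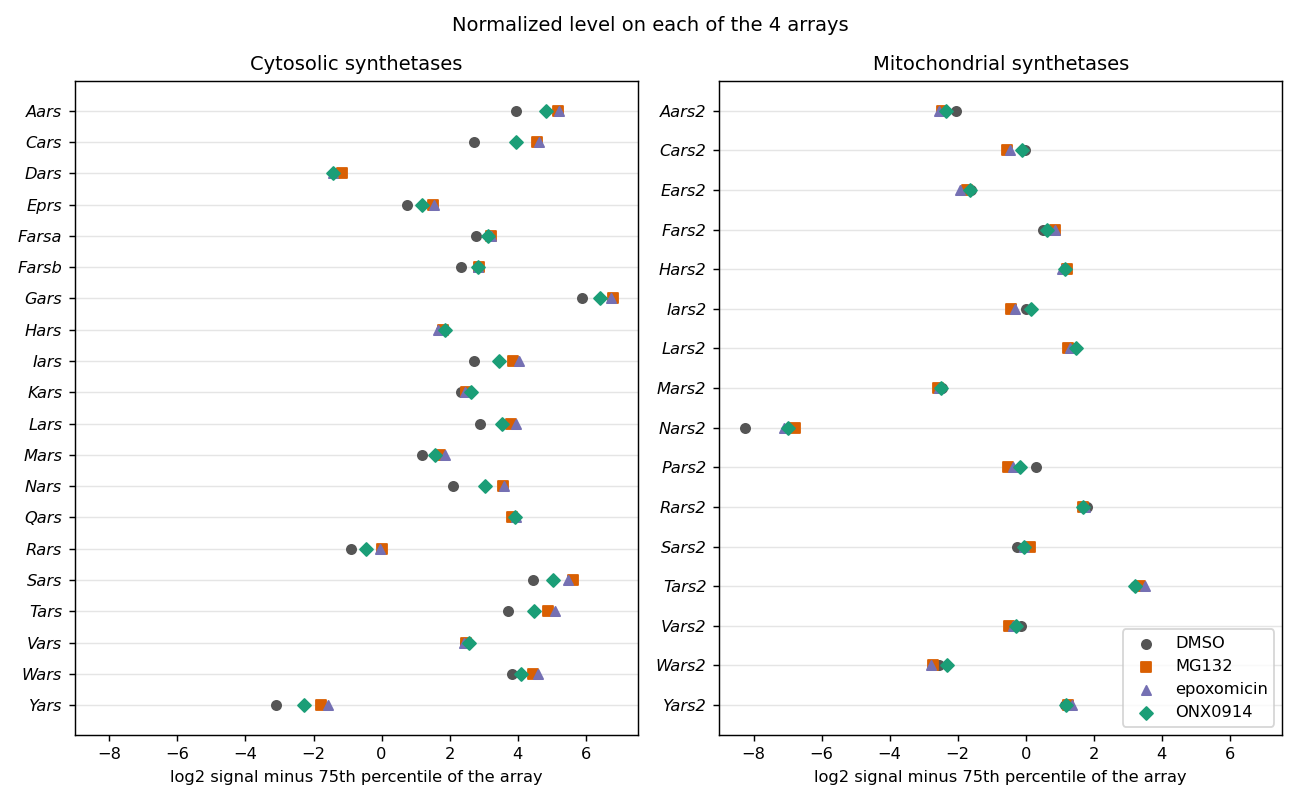
Level of each synthetase on the 4 arrays, as log2 signal minus the 75th percentile of its array (x axis), with cytosolic genes on the left, mitochondrial genes on the right and 1 point per array. Levels of different genes come from different probes and are not comparable. For *Cars*, *Nars*, *Yars*, *Aars*, *Tars*, *Iars* and *Sars* the DMSO point lies apart on the left, with ONX0914 next and MG132 and epoxomicin on the right. For most mitochondrial genes the points lie close together, and *Nars2* was not above background on any array.

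*Cars*, which encodes cysteinyl-tRNA synthetase, had the largest difference with each inhibitor and was the only synthetase at least 2-fold higher with all 3, as were 2.02% of the 13464 genes compared with all of them. This depended on the processing: with the mean over a gene's probes *Aars* had larger differences than *Cars* with each inhibitor (2.07, 1.96 and 1.86) and also passed with all 3, and with normexp on all spots *Aars* (1.07) and *Nars* (1.06) passed with ONX0914 as well. The mean for *Aars* includes a dim second probe, with signals of 3.48 under DMSO to 24.2 under ONX0914. The signal of *Cars* was 10828 under DMSO, 34363 under MG132, 41036 under epoxomicin and 24900 under ONX0914. After scaling, it was 3.61-fold higher with MG132 (log2 difference 1.85), 3.74-fold with epoxomicin (1.90) and 2.36-fold with ONX0914 (1.24). Ordered by increase, it stood at place 315 of 13772 genes with MG132, 376 with epoxomicin and 325 with ONX0914.

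*Nars*, *Yars* and *Aars* followed with MG132. *Nars*, asparaginyl-tRNA synthetase, had signals of 7119 under DMSO, 17074 under MG132, 20197 under epoxomicin and 13055 under ONX0914, and differences of 1.45, 1.48 and 0.91 in that order of inhibitors. *Yars*, tyrosyl-tRNA synthetase, was the dimmest of the genes that passed the threshold, with signals of 194, 419, 567 and 330 on the same arrays. Its differences were 1.30, 1.53 and 0.81, and they were the ones that depended most on background correction: with normexp fitted on all spots they were 0.42, 0.54 and -0.02. *Aars*, alanyl-tRNA synthetase, had signals of 25292, 53055, 62074 and 45599, with differences of 1.25, 1.28 and 0.89.

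*Sars*, *Tars* and *Iars*, which charge tRNAs with serine, threonine and isoleucine, were also at least 2-fold higher with both MG132 and epoxomicin. *Sars* had signals of 35626 under DMSO, 72190 under MG132, 74358 under epoxomicin and 52990 under ONX0914, and differences of 1.20, 1.04 and 0.61. The larger value with MG132 than with epoxomicin turned without scaling (1.02 and 1.06). The signals of *Tars* were 21676, 43127, 57048 and 35437 on the arrays in that order, with differences of 1.18, 1.38 and 0.75. *Iars*, a member of the multisynthetase complex, had signals of 10760, 20860, 27362 and 17688 and differences of 1.14, 1.33 and 0.76. The signals of all 7 genes were higher on each inhibitor array than on the DMSO array.

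*Lars*, leucyl-tRNA synthetase and known also as a sensor of leucine, lay at the threshold. Its signals were 12319 under DMSO, 20237 under MG132, 25962 under epoxomicin and 18484 under ONX0914. Epoxomicin gave a 2.08-fold higher level (1.06) and MG132 a 1.87-fold higher one (0.90), and its difference with ONX0914 was 0.62. Just under the threshold were *Rars* (0.90 for MG132, 0.86 for epoxomicin and 0.44 for ONX0914) and *Gars* (0.89, 0.86 and 0.51), followed by *Eprs* (0.75, 0.79 and 0.42).

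Smaller differences were found for *Wars* (0.62 for MG132, 0.77 for epoxomicin and 0.25 for ONX0914) and *Mars* (0.52, 0.67 and 0.39), which charge tRNAs with tryptophan and methionine. The genes for both subunits of phenylalanyl-tRNA synthetase gave nearly equal values, *Farsb* with 0.52, 0.50 and 0.49 and *Farsa* with 0.45, 0.44 and 0.34. Their differences were alike between inhibitors as well.

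The remaining cytosolic genes, *Dars*, *Hars*, *Kars*, *Qars* and *Vars*, lay between -0.12 and 0.28 with all inhibitors. They charge tRNAs with aspartate, histidine, lysine, glutamine and valine. *Qars* had the smallest difference with MG132 (0.01), with signals of 23197 under DMSO, 20561 under MG132, 25565 under epoxomicin and 24414 under ONX0914. *Hars* had the lowest value with epoxomicin (-0.11), with signals of 5587, 5059, 5250 and 5867 on the arrays in that order. *Dars* was lowest with ONX0914 (-0.12), with signals of 659, 644, 620 and 592. Thus, 15 cytosolic genes had differences of 0.45 or more with MG132, and these 5 had differences of 0.15 or less.

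**Figure D2:**
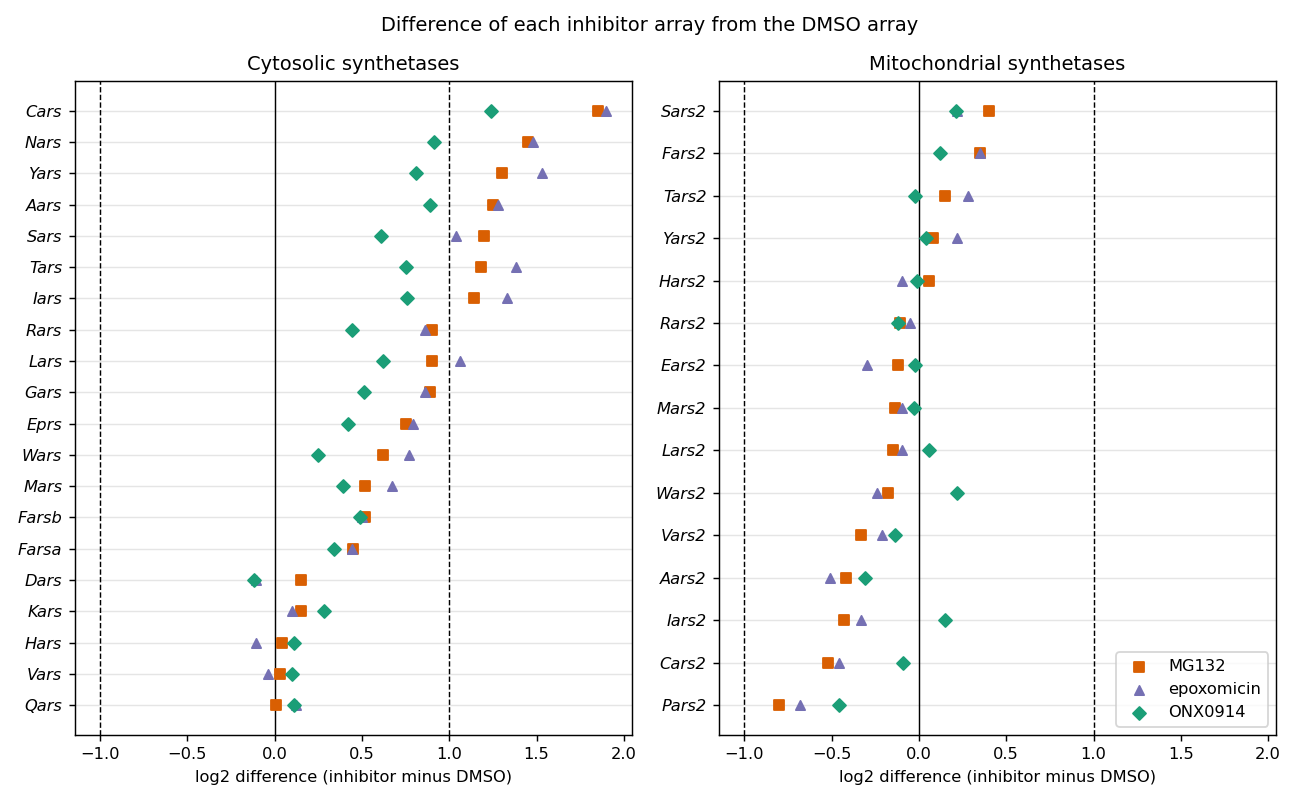
Log2 difference of each synthetase from the DMSO array (x axis) with MG132, epoxomicin and ONX0914, ordered by the difference with MG132, with the cytosolic genes on the left and the 15 mitochondrial genes compared on the right. Dashed lines mark a 2-fold change. *Cars* lies at 1.85, 1.90 and 1.24, and no mitochondrial point reaches a dashed line.

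The genes were then grouped by what is known of the proteins. Among the 8 synthetases of the multisynthetase complex (*Dars*, *Eprs*, *Iars*, *Kars*, *Lars*, *Mars*, *Qars* and *Rars*), 1 was at least 2-fold higher with MG132, 2 with epoxomicin and none with ONX0914, with medians of 0.64, 0.73 and 0.41. Among all genes the shares were 7.24%, 8.48% and 3.27%, so the counts in the complex with MG132 and ONX0914 are close to the background. Among the 12 outside the complex, 6 were higher with MG132, 6 with epoxomicin and 1 with ONX0914, with medians of 1.04, 0.95 and 0.56. Both groups held genes near 0, *Qars*, *Dars* and *Kars* in the complex and *Hars* and *Vars* outside it. By catalytic class, 3 of 9 class I genes and 4 of 10 class II genes were higher with MG132, with medians of 0.90 and 0.71. With epoxomicin, 4 genes of each class were higher, with medians of 0.86 and 0.68. The order of the classes turned with normexp on all spots, to 0.64 and 0.85 with MG132 and 0.78 and 0.81 with epoxomicin. With ONX0914 the medians of both classes were 0.44 and 0.50, and *Cars* of class I was the only gene higher. *Eprs*, which holds one core of each class, was counted in neither.

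Among the mitochondrial enzymes, *Pars2*, prolyl-tRNA synthetase, was lowest with each inhibitor by the brightest probe of each gene. Its signals were 2008 under DMSO, 1014 under MG132, 1270 under epoxomicin and 1416 under ONX0914. After scaling it was 1.74-fold, 1.60-fold and 1.38-fold lower than with DMSO (-0.80, -0.68 and -0.46). A second probe of *Cars2*, described below, had lower values with MG132 (-0.96) and epoxomicin (-1.19). *Aars2* (-0.42 for MG132, -0.51 for epoxomicin and -0.31 for ONX0914) and *Vars2* (-0.33, -0.21 and -0.14) had the same sign with all 3. *Cars2* (-0.52, -0.46 and -0.09) and *Iars2* (-0.43, -0.33 and 0.15) had a difference close to 0, or above it, with ONX0914.

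At the other end, *Sars2*, seryl-tRNA synthetase, had the largest difference with MG132 (0.40), with signals of 1363 under DMSO, 1578 under MG132, 1608 under epoxomicin and 1535 under ONX0914. *Fars2*, phenylalanyl-tRNA synthetase, had the largest with epoxomicin (0.35), with signals of 2339, 2614, 3021 and 2469 on the arrays in that order. *Wars2*, tryptophanyl-tRNA synthetase, had the largest with ONX0914 (0.22), with signals of 284, 220, 244 and 321, whereas its differences with MG132 (-0.18) and epoxomicin (-0.24) were below 0. The values of *Ears2*, *Hars2*, *Lars2*, *Mars2*, *Rars2*, *Tars2* and *Yars2* lay between -0.30 and 0.28 with all inhibitors.

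**Figure D3:**
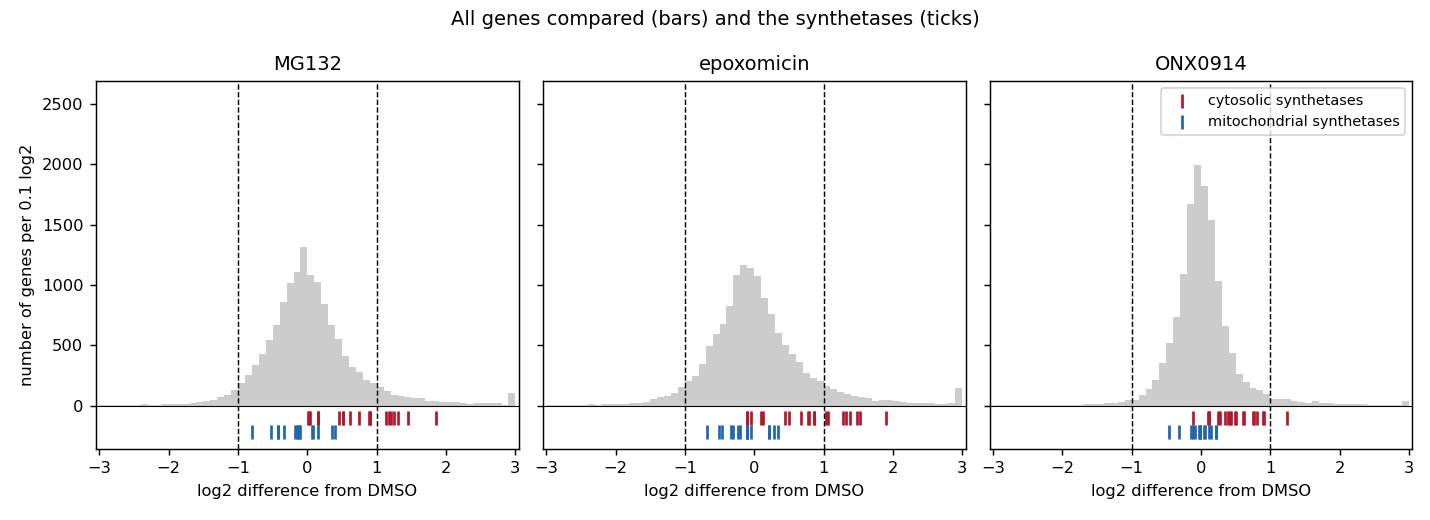
Number of genes per 0.1 of log2 difference from DMSO (grey bars, with values beyond 3 placed in the outermost bars) for all genes compared with MG132, epoxomicin and ONX0914, with each cytosolic synthetase as a red tick and each mitochondrial synthetase as a blue tick. Dashed lines mark a 2-fold change. The red ticks lie mostly to the right of the peak of the bars, with medians of 0.82, 0.83 and 0.46, and the blue ticks lie around the middle, with medians of -0.14, -0.10 and -0.02.

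Cytosolic and mitochondrial enzymes were also set side by side for each amino acid. Of 17 pairs, 16 were measured (*Nars* and *Nars2* could not be compared, *Eprs* was paired with both *Ears2* and *Pars2*, and *Farsa* and *Farsb* were each paired with *Fars2*, so that the pairs are not all separate). The cytosolic gene had the larger difference in 15 of 16 pairs with MG132, in 15 with epoxomicin and in 16 with ONX0914. The median gap was 0.94, 1.06 and 0.51. The gap was largest for cysteine, at 2.38, 2.36 and 1.33, followed by alanine with MG132 and epoxomicin, at 1.67 and 1.79. The exception was histidine, with a gap of -0.02 with MG132 and -0.01 with epoxomicin, which is smaller than the spread between repeated spots. The phenylalanine pairs had gaps of 0.09 to 0.38 and the valine pair gaps of 0.18 to 0.36. Across the scalings, background corrections and probe choices tried, the cytosolic gene was larger in 14 to 16 pairs.

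**Figure D4:**
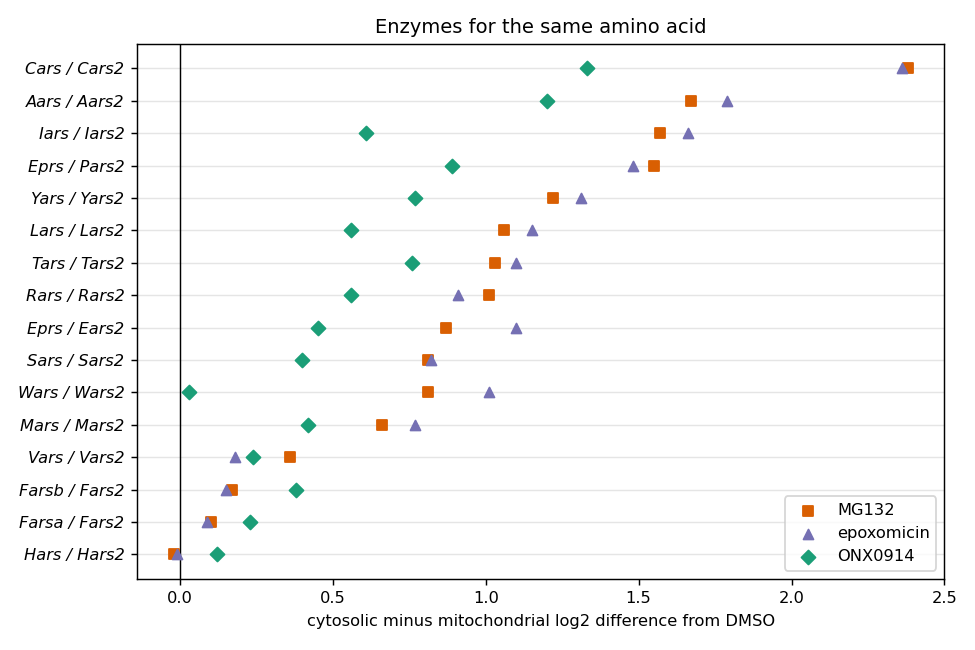
Gap between the cytosolic and the mitochondrial enzyme for the same amino acid, as the cytosolic minus the mitochondrial log2 difference from DMSO (x axis), with 1 point for each inhibitor and pair. *Cars* and *Cars2* lie furthest to the right with MG132, epoxomicin and ONX0914, at 2.38, 2.36 and 1.33, and *Hars* and *Hars2* lie at about 0.

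The inhibitors had been given at the same dose for the same time, and they were also compared directly, without the DMSO array. ONX0914 was below MG132 in 16 of 20 cytosolic genes, as it was in 46.9% of all 13707 genes compared, with a median difference of -0.35 for the cytosolic genes and of 0.03 for all genes. It was below epoxomicin in 17 of 20, against 45.5% of 13792 genes, with a median of -0.38 and of 0.04 for all genes. The differences were largest for *Cars* against MG132 (-0.61) and for *Yars* against epoxomicin (-0.72), and none reached 2-fold. The difference from DMSO was smallest with ONX0914 in 16 of 20 cytosolic genes, and in 13 to 16 over the alternatives. No share of all genes is given for that count, so it cannot be told from the background. Under ONX0914 the differences of all genes were also less spread. Their 75th percentile was 0.2, against 0.32 under MG132 and 0.34 under epoxomicin. Above it lay 16 cytosolic genes under ONX0914 and 15 under either of the other compounds. Whether the smaller differences are particular to the synthetases was not tested. Epoxomicin was above MG132 in 11 of 20 cytosolic genes, against 51.6% of 13629 genes, with a median of 0.03 and a range from -0.26 for *Dars* to 0.23 for *Yars*. That count depended on scaling and was 19 with none. Among the mitochondrial genes, ONX0914 was above MG132 in 9 of 15, against 7277 of all 13707 genes. It was above epoxomicin in 10 of 15, against 7513 of 13792. Both counts are close to the background, and the medians of the mitochondrial genes were 0.11 and 0.10. With no replicate array, no interval can be given for the differences between the compounds.

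For 9 synthetases there was more than 1 probe, and the brightest had been used. For *Wars* the second probe, of another transcript record, gave larger differences (1.03 with MG132, 0.90 with epoxomicin and 0.70 with ONX0914, from a signal of 1153 with DMSO), so that it was at least 2-fold higher with MG132. For *Cars2* the second probe gave lower values (-0.96, -1.19 and -0.41, from a signal of 814), which is 2.29-fold lower with epoxomicin. By that probe 1 mitochondrial synthetase would have passed the threshold. The sign differed between the probes of *Wars2* with MG132 and epoxomicin (0.37 and 0.17 for the second), of *Iars2* with ONX0914 (-0.04) and of *Tars2* with ONX0914 (0.21). The second probe of *Aars* was well above background on 2 arrays, with signals of 3.48 under DMSO, 22.7 under MG132, 22.1 under epoxomicin and 24.2 under ONX0914. The mean over the probes of *Aars* thus includes a DMSO and an epoxomicin signal that were not well above background. That of *Pars2* was well above background on 1 array. Both probes of *Farsa* and of *Vars2* had the same sign with each inhibitor.

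Other genes of tRNA charging and translation were read alongside. The scaffold proteins of the multisynthetase complex, *Aimp1*, *Aimp2* and *Eef1e1*, did not pass the threshold, and their differences ranged from -0.27 (*Aimp2* with ONX0914) to 0.39 (*Eef1e1* with epoxomicin), with medians of 0.01, -0.01 and 0.13 for MG132, epoxomicin and ONX0914. The first 2 of these medians changed sign with scaling. The amidotransferase that makes glutaminyl-tRNA in mitochondria, which have no glutaminyl-tRNA synthetase of their own, had medians of -0.31, -0.39 and 0.01 over *Qrsl1*, *Gatb* and *Gatc*, and that with ONX0914 changed sign with scaling. *Gatc* was at least 2-fold lower with epoxomicin (-1.09), with signals of 352 under DMSO, 176 under MG132, 167 under epoxomicin and 295 under ONX0914. The cytosolic elongation factors *Eef1a1*, *Eef1b2*, *Eef1d*, *Eef1g* and *Eef2* lay between -0.28 and 0.30, and their medians of 0.17 and 0.06 with MG132 and epoxomicin changed sign with scaling (0.09 with ONX0914). None of 9 mitochondrial translation factors passed the threshold, with the largest difference in *Mtrf1l*, a release factor (0.94 with epoxomicin), and the smallest in *Tsfm*, an elongation factor (-0.35 with epoxomicin). Their medians were -0.04, 0.22 and 0.03. The first changed sign with normexp (0.13 on all spots) and the last with scaling (-0.01 without it).

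The integrated stress response genes, which hold ATF4 and known targets of it but no synthetase, had larger medians than the synthetases. Of the 17 genes, *Chac1* had no probe with a value on all arrays, and 13 of 16 were at least 2-fold higher with MG132, 12 with epoxomicin and 10 with ONX0914, with medians of 1.96, 1.95 and 1.63. *Atf4* had signals of 102412 under DMSO, 195971 under MG132, 220379 under epoxomicin and 241575 under ONX0914, and differences of 1.12, 1.09 and 1.28. Its difference was thus largest with ONX0914, whereas that of *Asns*, at 1.79, 1.81 and 1.25, was smallest there. ONX0914 was below MG132 in 14 of these 16 genes, against 46.9% of all genes, with a median of -0.45. *Atf4* had the highest value of the list in that comparison (0.16). The differences from DMSO ranged from *Slc7a11*, the cystine transporter, at 5.63, 5.46 and 4.19, to *Phgdh*, an enzyme of serine synthesis, at 0.14, 0.73 and 0.03. Those of *Slc7a11* rest on a dim DMSO signal of 27.65. The lowest signal well above background on that array was 14.7. The element described above was present in 5 of the 17 genes (29.4%), against 3.91% of all genes with a promoter sequence.

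Of the kinases that phosphorylate eIF2α, *Eif2ak2*, a sensor of double-stranded RNA, was at least 2-fold higher with epoxomicin (1.23), and its differences with MG132 and ONX0914 were 0.86 and 0.67. *Eif2ak1*, *Eif2ak3* and *Eif2ak4*, the last of which senses uncharged tRNA, lay between -0.48 and 0.13. The medians of the 4 kinases were -0.17, -0.01 and -0.05, and that with epoxomicin changed sign with scaling. The 10 reference genes had medians of -0.12, -0.13 and -0.03, the last of which changed sign under quantile normalization (0.02). *Gusb*, the lysosomal β-glucuronidase, was at least 2-fold lower in both MG132 (-1.48) and epoxomicin (-1.36).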

How the data were processed

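The 4 arrays each hold 44397 spots, of which 43020 are not controls. Per the file headers, Feature Extraction 10.7.1.1 made the deposited intensity of each spot (processed signal, with the background subtracted within the array and no scaling between arrays) and the deposited 0 or 1 calls per spot. A second deposited file holds log2 values that the authors obtained in GeneSpring, used here as an alternative. Its values were within a median of 0.026 (in the array that differed most) of those computed here once each probe's median over the arrays had been subtracted.

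Control spots and spots marked as outliers (159 to 194 per array) were left out. The log2 of each signal minus the 75th percentile of its array was used, with 399 probes entering as the mean of their 10 spots. Of 39429 probes, 26581 (67.4%) were named through their transcript accession in the RefSeq table of GRCm38.p6. The brightest probe with a value on all arrays stood for a gene. A gene had to be well above background on either array of a comparison, and a bound replaced a dimmer signal. Differences of 2-fold or more were counted, and no test was made.

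The members, gene lists and alternatives were chosen with earlier results of these data known. By the rule for named genes, all members are accounted for, signals are given for those at least 2-fold from DMSO and for the extremes of each compartment, and of the other lists the extremes are named. *Asns*, *Atf4* and other genes outside that rule were chosen after their values were seen. The alternatives were other scalings (75th percentile over detected probes, median, quantile, none), normexp background correction (offset 50, on median brightness), the authors' table, averaging all probes of a gene, signals in place of bounds, a filter on all 4 arrays, 1.5-fold as threshold, and *Gars* and *Kars* left out. The calculations were tested on simulated data. Software was R 4.3.3 (limma 3.58.1) and Python 3.11.15 (pandas 2.3.3, numpy 2.4.6, matplotlib 3.10.9).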

Additional observations from a re-analysis of the deposited data

How the results depend on the processing

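No difference of a synthetase that was at least 2-fold changed its sign under any alternative. Among 1050 values of single synthetases, 168 moved by 0.0867 or more (the largest spot SD times the square root of 2), 76 of them with normexp fitted on all spots. Without scaling, the median with MG132 was 0.64 for cytosolic and -0.32 for mitochondrial genes, and 5 in place of 7 cytosolic genes were at least 2-fold higher. With a shift to the median of all probes, these medians were 0.73 and -0.23. With normexp fitted on all spots, the cytosolic median was 0.70 with MG132, the mitochondrial medians were -0.30 with MG132 and -0.21 with epoxomicin, and 3 cytosolic genes were at least 2-fold higher with ONX0914. With the mean over all probes of a gene, that last count was 2, *Aars* and *Cars*. At a threshold of 1.5-fold, the number of cytosolic genes that were higher was 12 for MG132, 13 for epoxomicin and 8 for ONX0914, against 14.9%, 16.6% and 7.64% of all genes. By that threshold 1 synthetase, *Pars2*, was lower with MG132 and with epoxomicin, against 12.9% and 14.3% of all genes. Leaving out *Gars* and *Kars* could not change a 2-fold count, because neither gene passed that threshold with any inhibitor. The causes of these shifts were not tested, apart from the lower threshold.

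Single calls near the threshold depended on the setting: over all alternatives, the difference ranged from 0.99 to 1.37 for *Tars* and from 0.96 to 1.23 for *Iars* with MG132, and from 0.96 to 1.14 for *Sars* and from 0.98 to 1.24 for *Lars* with epoxomicin. *Aars* ranged from 1.07 to 2.07 with MG132 and from 1.20 to 1.96 with epoxomicin, the highest values being those of the mean over its probes. *Yars* ranged from 0.42 to 1.30 with MG132, and *Cars* with ONX0914 from 1.19 to 1.41. The median of all genes with MG132 was -0.20 without scaling and -0.28 with normexp on all spots, against -0.02, and the genes at least 2-fold higher and lower were 739 and 903, and 468 and 2557, against 997 and 507. With a shift to the median they were 849 and 687. With normexp on all spots, 571 were higher and 3015 lower with epoxomicin, against 1176 and 610, and 192 and 2712 with ONX0914, against 451 and 193. With outlier spots left out of that fit, 601 and 283 genes were higher and lower with MG132, 695 and 378 with epoxomicin, and 214 and 74 with ONX0914. The alternative of naming probes by a gene name column alone was not run, and all names came through transcript accessions. No paired analysis was possible because each condition had a single array. *Nars2* was limited by its signal over background.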
